A study of Gossypium hirsutum with 51 samples.

Results

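ACT1 and ACT2 are the 2 actin spots on a cDNA array of upland cotton, Gossypium hirsutum. They were taken as the rows carrying those names, which makes 2 of the 11706 rows of the table and 2 of its 11 spots with gene-like names. The other rows are 11682 cDNA clones and 13 controls.

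Actin is a globular protein that polymerises into filaments. In plant cells, bundles of these filaments carry vesicles with membrane and wall material through the cytoplasm, and rapid cell elongation depends on them. Cotton fibres are single cells of the ovule's outer layer that start to grow out around the day of flowering, elongate over the following weeks and then thicken their walls. Cotton carries many actin genes with similar coding sequences, and some of them are known to be transcribed mainly in elongating fibres.

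Total RNA of ovules from wild type and from plants labelled as the fl mutant was hybridised in pairs with the dyes Cy5 and Cy3. The mutated gene, the cultivars and the growth conditions are not given in the sources used here, and no transgene or treatment is named for either genotype. Against wild type at +3 days post anthesis (DPA, with the day of flower opening as 0) stood wild type at -3, 0, +5, +10, +15 and +20 DPA. The fl mutant at +3 stood against wild type at +3, and the fl mutant at +10 against wild type at +10. Each of these 8 comparisons has 3 sets of a forward array and its dye swap. On 3 self-to-self arrays both channels held wild-type RNA of +3, which makes 51 arrays in all. A set, averaged over its 2 arrays, was 1 replicate, since per the design text the sets are separate biological samples. The rows carry too few gene names for the ovule label to be checked against marker genes. Whole ovules were used, so a larger share of fibre cells and more transcript per fibre cell cannot be told apart in any value below.

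The sign of the ratios is not stated and is called likely here. The control spot HEX read -11.7 to -7.16 on 23 forward arrays and 5.83 to 12.1 on 23 swaps, which puts the first RNA of each title over the second. Every difference below is given as the age minus +3, or as fl minus wild type; if all ratios run the other way, all signs turn. The clone rows of fl against wild type at +3 had to be turned against the other arrays, from a dye effect that correlated at -0.57 to -0.40 with the self-to-self arrays, against -0.06 to 0.69 in 21 other sets. The named spots at fl +3 were not turned, because HEX there has the sign it has elsewhere. Were they turned too, the actin values of fl at +3 would change sign and those at +10 would not.

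An array of +5 against +3 in set 3 and an array of +10 against +3 in set 2 hold the same 19 of 19 control and named values. It was left out of both comparisons, which leaves 2 complete sets at +5 and at +10. ACT1 was measured on 50 arrays and ACT2 on 51; the array without ACT1 is the forward array of -3 against +3 in set 3, so ACT1 has 2 complete sets at -3. The named spots were deposited without the normalization applied to the clones on 41 arrays, so each actin value is also given after the median of the 11 named spots of its array was subtracted, below called the centred value.

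The self-to-self arrays show how far an actin spot reads from 0 when both channels hold one RNA. ACT1 read -0.20, -0.10 and 0.05 on the log2 scale in sets 1, 2 and 3. ACT2 read 0.04, -0.10 and -0.35 on the same arrays. HEX read -9.04, 8.25 and -8.59 there, so set 2 has the sign of a swap, and the actin values were not turned for it. The self-to-self values are not averaged over the dyes, as those of the sets are. The difference ACT1 minus ACT2 was -0.24, 0.0045 and 0.41. Within a set, forward array and swap differed by a median of 0.37 for ACT1 (21 sets), 0.20 for ACT2 (22 sets) and 0.22 for ACT1 minus ACT2 (21 sets). The largest such gaps were 1.33, 0.92 and 0.98.

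The first question was how the actin transcripts changed with the age of wild-type ovules. The ACT1 signal was low before and on the day of flowering, highest at +5 and +10, and lower at +15 than at +10. Its value below the +3 level at +15 passed the test, but not under several of the alternatives run. The ACT2 signal did not differ detectably between -3, 0 and +3, was higher than at +3 from +5 on, and was still higher at +20. The 2 spots differed from each other in their ratios at -3, 0, +15 and +20 and not detectably at +5 and +10.

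At -3, ACT1 stood at -1.80 and -1.90 in the 2 complete sets, a mean log2 ratio of -1.85 ± 0.07 (SD, n = 2), which is 3.61-fold lower than at +3. At 0 the 3 sets read -1.31, -1.31 and -1.27, a mean of -1.29 ± 0.02 (SD, n = 3) and 2.45-fold lower. All 5 set values lie far below the self-to-self range, and the sets of -3 and 0 do not overlap. Both differences passed limma's moderated test over all rows, with adjusted p = 6.5e-08 at -3 and 1.24e-06 at 0. In the same fit 45.1% of all tested rows passed at -3 and 28.6% at 0, in either direction. Of all tested rows, 1.1% lay below ACT1 at each of these ages. The step between the 2 ages, 0 minus -3, was 0.56 (adjusted p = 0.104 by limma), where 19.2% of rows passed. The clone rows of all arrays at -3 were not normalized, with array medians from -0.52 to 0.47, while those at 0 were normalized. The shares and ranks at -3 and for this step carry those offsets. With the clone median subtracted, 5294 rows passed at -3 in place of 4824.

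At +5, ACT1 read 0.97 and 0.54, a mean of 0.76 ± 0.31 (SD, n = 2). At +10 it read 0.67 and 1.38, a mean of 1.03 ± 0.50 (SD, n = 2). These 4 set values all lie above the self-to-self range, and the values of +5 and +10 overlap. In set 2 at +5 the 2 arrays had opposite signs. The swap array read -0.12, within the self-to-self range, so the 0.54 of that set rests on its forward array. ACT1 was higher than at +3 at both ages, 1.69-fold at +5 (limma adjusted p = 0.00161) and 2.04-fold at +10 (8.94e-05), where 56% and 59.1% of all rows passed. Leaving out set 3 moved the +10 value to 0.67 (adjusted p = 0.0305). The centred value at +10 was 0.58 (adjusted p = 0.00282), against 0.63 at +5.

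At +15, ACT1 read -0.67, -0.10 and -0.36, a mean of -0.38 ± 0.29 (SD, n = 3). Set 2 lies within the self-to-self range and the other sets below it. The difference from +3 passed at adjusted p = 0.0296 by limma, in a comparison where 68% of rows passed. It did not pass without set 1 (-0.23, adjusted p = 0.0818) or without set 3 (-0.39, adjusted p = 0.0602), and it did pass as a centred value (-0.50, adjusted p = 0.00124). The step of +15 minus +10 was larger, -1.40 with a standard error of 0.23 (adjusted p = 1.47e-04), and there 30.9% of rows passed and 1.8% lay below ACT1.

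At +20, ACT1 read -0.06, -0.29 and -0.32, a mean of -0.22 ± 0.14 (SD, n = 3). The difference from +3 did not pass (adjusted p = 0.182 by limma; 69.3% of rows passed), but did without set 1 (-0.31, adjusted p = 0.0265). The sets of +15 and +20 overlap, and +20 minus +15 was 0.15 (adjusted p = 0.735), where 7.96% of rows passed.

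For ACT2 the early ages gave smaller differences. At -3 it read -0.13, 0.04 and -0.35, a mean of -0.14 ± 0.19 (SD, n = 3). At 0 it read -0.09, -0.07 and -0.07, a mean of -0.08 ± 0.01 (SD, n = 3). The highest value, 0.04, lies at the upper end of the self-to-self range of ACT2 and the others within it, and neither mean passed the test (limma adjusted p = 0.408 and 0.716). The 95% interval of the difference from +3 ran from -0.43 to 0.14 at -3. The centred value at -3 was 0.30 and passed as higher than at +3 (adjusted p = 0.00653), on arrays whose named-spot medians ran from -1.03 to 0.28. The direction of ACT2 at -3 thus turns with the scale.

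From +5 on, ACT2 was higher than at +3 in every complete set. It read 0.87 and 0.49 at +5, a mean of 0.68 ± 0.27 (SD, n = 2), and 1.09 and 0.91 at +10, a mean of 1.00 ± 0.13 (SD, n = 2). At +15 the sets read 0.42, 0.96 and 0.93, a mean of 0.77 ± 0.30, and at +20 0.83, 0.36 and 0.33, a mean of 0.51 ± 0.28 (SD, n = 3 each). These 10 set values lie above the self-to-self range, and the ranges of neighbouring ages overlap except those of +5 and +10. All 4 differences passed limma's test, with adjusted p = 0.00196 at +5, 4.7e-05 at +10, 5.09e-05 at +15 and 0.0027 at +20. The call at +5 was lost without set 1 (0.49, adjusted p = 0.0741).

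None of the steps between neighbouring late ages passed for ACT2. It was 0.32 for +10 minus +5 (adjusted p = 0.477 by limma), where 6.1% of rows passed, -0.23 for +15 minus +10 (0.459) and -0.26 for +20 minus +15 (0.472). The centred means of ACT2 were nearly level, at 0.55, 0.55, 0.64 and 0.59 for +5, +10, +15 and +20. At +10 the centred value is thus smaller than the deposited 1.00 by more than the SD of either, and it still passed (adjusted p = 1.30e-04). The median behind these centred values includes both actins. With the median of the other named spots subtracted instead, ACT2 stood at 0.85, 0.77, 0.64 and 0.62 at these ages. The level course of the means thus depends on which spots form the centre.

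Ordered by mean from low to high, ACT1 ran -3, 0, +15, +20, +3, +5, +10, and the set ranges of +15 with +20 and of +5 with +10 overlap. ACT2 ran -3, 0, +3, +20, +5, +15, +10, and only the neighbours 0 with +3 and +3 with +20 have ranges that do not overlap. The +3 level is 0 by construction and has no spread of its own in this order. Over the 6 age comparisons together both spots passed limma's F test (adjusted p = 3.75e-09 for ACT1 and 1.87e-06 for ACT2), as did 90.7% of all rows.

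**Figure D1:**
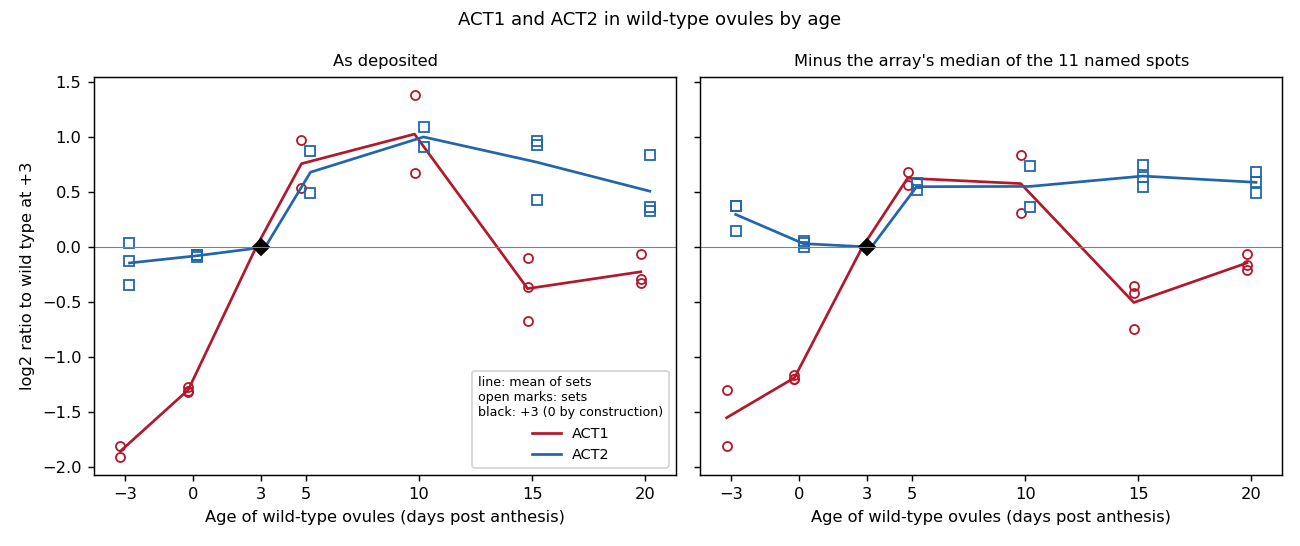
Log2 ratio of ACT1 (red circles) and ACT2 (blue squares) in wild-type ovules against wild type at +3, by age in days post anthesis, as deposited (left) and after subtraction of each array's named-spot median (right). Open marks are sets, lines join the means, and the black diamond is +3, which is 0 by construction; ACT1 lies at -1.85 at -3 and ACT2 at -0.14, both stand near 1 at +10, and ACT1 is back at -0.38 at +15.

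The second question was whether the fl mutant differs from wild type of the same age. ACT1 was lower in fl at both ages, by 3.86-fold at +3 and 2.93-fold at +10. ACT2 was lower in fl at +3 on the deposited scale and not on the centred scale, and it did not differ detectably at +10.

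At +3, ACT1 in fl over wild type read -1.74, -2.04 and -2.07 in sets 1, 2 and 3, a mean of -1.95 ± 0.18 (SD, n = 3). The 6 arrays ran from -2.73 to -1.41, and none comes near the self-to-self range. Limma gave adjusted p = 2.04e-09; 44.3% of all rows passed. Of all rows, 0.8% lay below ACT1 with the clone signs turned and 0.1% with the clone signs as deposited. Named spots as a class read low on these arrays, with array medians from -1.03 to -0.46. The centred value of ACT1 was -1.21 ± 0.30 (SD, n = 3), a smaller difference that also passed (adjusted p = 1.44e-07).

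At +10, ACT1 in fl over wild type read -2.07, -1.25 and -1.33, a mean of -1.55 ± 0.45 (SD, n = 3). The swap array of set 1 read -2.59 and the other 5 arrays between -1.55 and -1.06. Limma gave adjusted p = 2.19e-08, where 66.1% of all rows passed. Without set 1 the mean was -1.29 (adjusted p = 4.03e-06). The centred value was -1.49 ± 0.22 (SD, n = 3).

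ACT2 in fl over wild type at +3 read -0.91, -0.82 and -0.29, a mean of -0.67 ± 0.34 (SD, n = 3), and passed at adjusted p = 5.04e-04 by limma. Set 3 lies within the self-to-self range of ACT2 and its swap array read 0.03. The centred value was 0.06 ± 0.18 (SD, n = 3; adjusted p = 0.561), so the call and the direction were lost when the median of the named spots, -0.72 in the middle array of this comparison, was subtracted. After the median of the control rows Y1 to Y3 was subtracted instead, a scale added after the values had been seen, ACT2 stood at -0.75 (adjusted p = 8.79e-04). The role of those controls is not given in the sources used here.

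At +10, ACT2 in fl over wild type read -0.42, -0.05 and 0.19, a mean of -0.09 ± 0.31 (SD, n = 3). The sets lie on both sides of 0 and the test was not passed (adjusted p = 0.575 by limma), with a 95% interval from -0.38 to 0.20. The centred sets ran from -0.06 to -0.01.

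The difference between the ages, fl minus wild type at +10 less the same at +3, was 0.40 for ACT1 (95% interval -0.04 to 0.84; limma adjusted p = 0.125) and 0.58 for ACT2 (standard error 0.19; adjusted p = 0.0189). Of all rows, 45% passed this test with the clone signs at +3 turned, and 65.4% with them as deposited. Without set 2 the ACT2 value was 0.49 and did not pass (adjusted p = 0.165). Without set 1 the ACT1 value was 0.77 and did pass (adjusted p = 0.0052). On the centred scale the values were -0.28 for ACT1 (adjusted p = 0.194) and -0.10 for ACT2 (adjusted p = 0.525), so the sign of this difference turned with the scale for both actins.

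Combined with wild type at +10 against +3, these comparisons give the difference of fl at +10 from fl at +3, which was not hybridised directly. It was 1.43 ± 0.28 for ACT1 and 1.58 ± 0.26 for ACT2 (estimate ± SE), with adjusted p = 5.61e-04 and 8.45e-05 by limma. With the clone signs turned, 1652 of all rows were called higher and 1496 lower in this contrast. Of all tested rows, 97.9% lay below ACT1 and 98.3% below ACT2. Were the named spots at fl +3 turned too, both actin values would be different, since fl at +3 enters them. The ACT1 value without set 3 was 0.90 (adjusted p = 0.0597) and without set 1 it was 2.15. Centred, the differences of fl at +10 from fl at +3 were 0.30 for ACT1 (adjusted p = 0.332) and 0.45 for ACT2 (adjusted p = 0.0279).

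**Figure D2:**
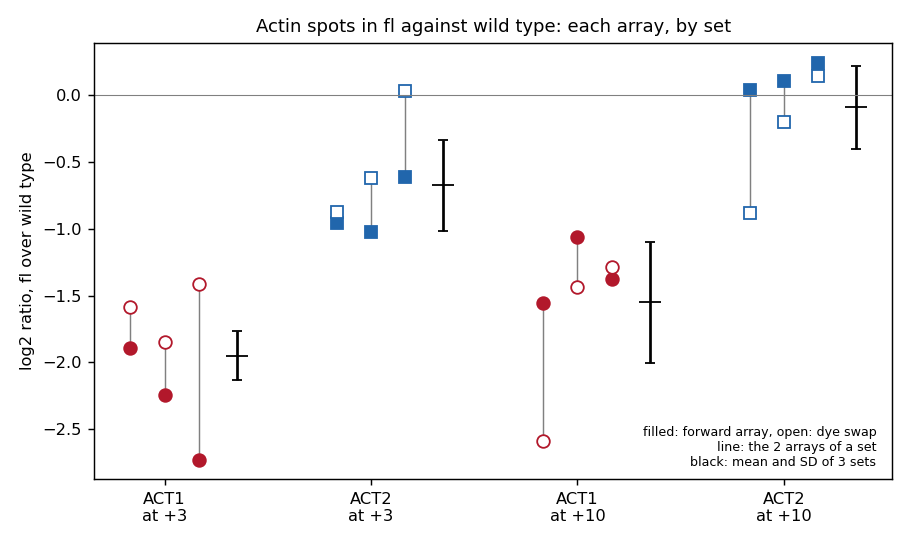
Log2 ratio of fl over wild type for ACT1 (red circles) and ACT2 (blue squares) at +3 and +10 days post anthesis, one mark per array, filled for forward and open for dye swap, with a line joining the arrays of a set and the mean and SD of 3 sets in black. ACT1 runs from -2.73 to -1.06 over all 12 arrays; ACT2 averages -0.67 at +3 and -0.09 at +10.

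The third question was how the 2 actin spots differ from each other. ACT1 minus ACT2 is taken within each array, so any shift common to both spots cancels and the value is the same on the deposited and the centred scale. It says how much more or less ACT1 changed than ACT2, and not which transcript is more abundant, since the levels of different spots cannot be set against each other.

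Relative to +3, ACT1 stood below ACT2 by -1.81 ± 0.19 at -3 (SD, n = 2), with complete sets at -1.67 and -1.94 and the single swap array of set 3 at -1.64. At 0 the sets read -1.22, -1.23 and -1.20, a mean of -1.22 ± 0.02 (SD, n = 3). The 11 arrays of these ages ran from -2.16 to -1.05, outside the self-to-self range. Limma gave adjusted p = 1.15e-07 and 3.35e-06. The step 0 minus -3 was 0.59 and did not pass (adjusted p = 0.0888), though it did without set 3 (0.58, adjusted p = 0.0421).

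At +5 the difference was 0.11 and 0.05 in the 2 sets, a mean of 0.08 ± 0.04 (SD, n = 2). At +10 it was -0.42 and 0.47, a mean of 0.03 ± 0.63 (SD, n = 2). Neither passed (limma adjusted p = 0.740 and 0.913), with 95% intervals from -0.31 to 0.46 and from -0.36 to 0.41. Both intervals use a spread pooled over all comparisons and not that of the 2 sets alone. At +5 a difference inside these limits was not detectable with 2 sets. The sets of +10 lie on both sides of 0 and both outside their interval, so that interval does not bound the difference at +10.

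At +15 the sets read -1.10, -1.06 and -1.29, a mean of -1.15 ± 0.12, and at +20 they read -0.89, -0.65 and -0.65, a mean of -0.73 ± 0.14 (SD, n = 3 each). All 12 arrays lie below the self-to-self range, and both means passed (limma adjusted p = 1.53e-06 and 2.51e-04). The step of +15 minus +10 was -1.17 (adjusted p = 9.0e-04), and without set 3 it was -0.66 (adjusted p = 0.0388). The step of +20 minus +15 was 0.42 and did not pass (adjusted p = 0.269), although the sets of the 2 ages do not overlap.

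In fl over wild type, ACT1 minus ACT2 read -0.82, -1.22 and -1.78 at +3, a mean of -1.28 ± 0.48 (SD, n = 3). At +10 it read -1.65, -1.20 and -1.52, a mean of -1.46 ± 0.23 (SD, n = 3). The 12 arrays ran from -2.12 to -0.71, all below the self-to-self range. Both means passed (limma adjusted p = 1.21e-06 at +3 and 6.51e-08 at +10), so ACT1 was lower relative to ACT2 in fl than in wild type at both ages. The choice of centre cannot alter this, because the centre cancels in the difference. Were the named spots at fl +3 turned, the value at +3 would change sign. The values at +10 and +3 differed by -0.18, with a 95% interval from -0.63 to 0.26 (adjusted p = 0.497). An exact sign-flip test over sets cannot go below p = 0.25 with 3 sets or 0.5 with 2, so these calls rest on limma's spread. That spread is fitted for each row over all comparisons together and moderated by the spread of all rows. It is taken as equal in every comparison. The SD of ACT1 minus ACT2 over sets ran from 0.02 on the day of flowering to 0.63 at +10 in wild type.

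**Figure D3:**
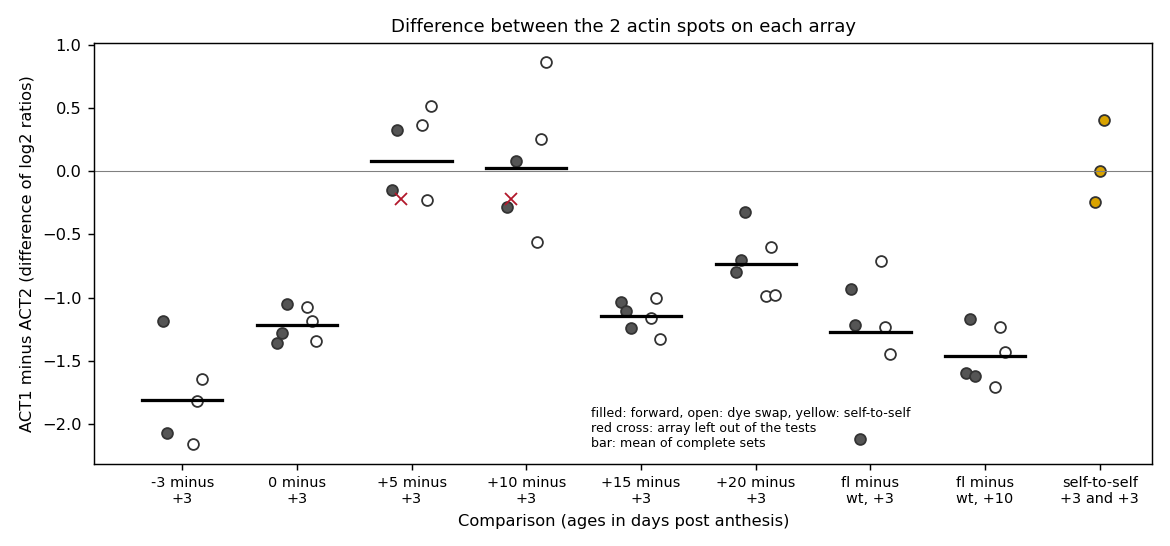
ACT1 minus ACT2 (difference of log2 ratios) on each array for the 8 comparisons and the self-to-self arrays, filled for forward, open for dye swap, yellow for self-to-self, with red crosses for the array left out and bars for the mean of complete sets. The values lie on both sides of 0 at +5, +10 and in the self-to-self arrays, with the complete sets of +10 apart at -0.42 and 0.47. They lie below 0 on every array of the other 6 comparisons, with means from -1.81 to -0.73.

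Of the 9 other named spots, 0 were called higher and 4 lower at -3, and 0 higher and 2 lower at 0. At +5 there were 3 higher and 3 lower, at +10 3 higher and 1 lower, and at +15 and +20 2 higher and 3 lower each. In fl over wild type, 0 were higher and 6 lower at +3, and 2 higher and 2 lower at +10. Of all tested rows, 45.1% were called at -3, 28.6% at 0, 56% at +5 and 59.1% at +10, in either direction. The share was 68% at +15, 69.3% at +20, and 44.3% and 66.1% in fl at +3 and +10. The median log2 ratio of the 9 spots was -0.61 in fl at +3, and between -0.32 and 0.20 in the other 7 comparisons. In fl at +3 the median over all tested rows was 0.07 with the clone signs turned and -0.07 with them as deposited. The part of that shift of the named spots in the actin values at fl +3 was not tested beyond the centred values above.

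2 of these spots carry tubulin names; tubulin builds microtubules, which guide the laying down of cellulose in growing plant cells. TUB1 was -1.74 at -3, 1.86 at +10 and -1.27 in fl at +3, all called by limma (adjusted p = 1.50e-11, 6.19e-10 and 2.24e-09). Centred, these were -1.30, 1.41 and -0.53, all called, so the difference in fl at +3 was the one most reduced. TUB1 stood above its +3 level at +15 (0.85) and +20 (1.49), both called. TUB2 read -0.21 at -3 and -0.31 in fl at +3, neither called, and was higher at +5 (0.56) and +10 (0.70). Centred, TUB2 stood at 0.23 at -3 and 0.43 in fl at +3, both called as higher (adjusted p = 0.0422 and 6.98e-04), and at 0.26 at +10, not called (0.0517), so its direction turned with the scale at -3 and in fl at +3. The spot SDH read -2.04 in fl at +3 and -1.81 at +10, both called, as ACT1 was; centred, it read -1.31 and -1.75, both called.

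**Figure D4:**
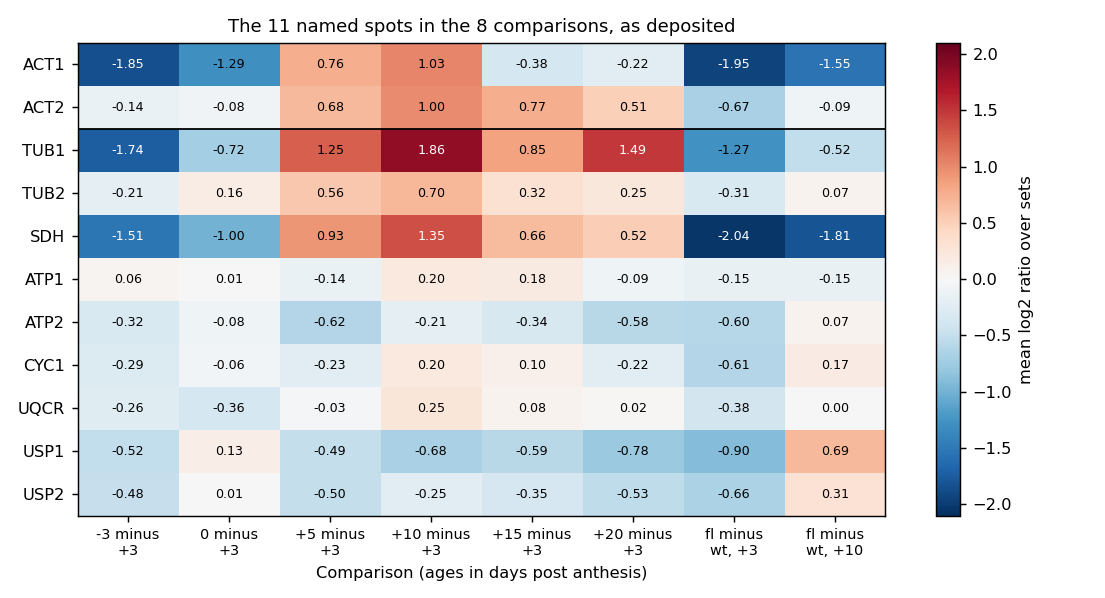
Mean log2 ratio over complete sets of the 11 named spots (rows, the actins above the line) in the 8 comparisons (columns), as deposited, in colour from -2.1 (blue) to 2.1 (red) with the mean printed in each cell. ACT1, TUB1 and SDH are the spots below -1 on this scale both at -3 and in fl at +3, and ACT2 is near 0 before +5.

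Likeness to the actins was measured as Pearson's r over the sets of the 6 age comparisons, all of which share wild-type RNA of +3, and is given as a description. It was taken on deposited values, where named spots share the offsets of their arrays. The clone rows used were normalized except at -3, so the r of named spots and of clones are not strictly comparable. The part of these offsets in r was not tested. Across 15 sets ACT1 and ACT2 correlated at 0.84. ACT1 was more like SDH (0.91) and TUB1 (0.91), and 752 of 3555 clones that spanned at least 1 log2 unit over the age means had an r with ACT1 above that of ACT2. The clones most like ACT1 were CM018G08 (0.97), CM013F09 (0.96) and CM056F07 (0.96). For ACT2, over 16 sets, they were CM066H06 (0.95), CM034A03 (0.94) and CM058E04 (0.94), with SDH at 0.91 among the named spots. These clones carry no gene name in the table.

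Which cotton actin genes the spots carry is not given in the sources used here. In RefSeq's annotation of assembly Gossypium_hirsutum_v2.1, ACT1 and ACT2 are both listed as synonyms of 1 gene, LOC107911661, and the next 2 genes on one side, LOC107911662 and LOC107911663, also carry actin synonyms. The names therefore do not tell the 2 spots apart. Since coding sequences of actin genes are similar, a cDNA spot may also bind transcripts of other actin genes, and each value is that of a spot and not of 1 transcript.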

How the data were processed

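The authors deposited 1 table of log2 ratios from 2-colour cDNA arrays, a unit found from the values. Per the deposited values, named spots were not normalized, and the clone rows of 41 of 51 arrays were, by unstated steps. All arrays of -3 against +3 and the self-to-self arrays are among those with clone rows not normalized. No brightness per spot was used, so no dim spot was filtered, and precision is limited by the number of arrays; 7639 to 11681 clones were measured per array.

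An exact 0 was treated as missing. Signs were turned to age minus +3 or fl minus wild type, and forward and swap averaged within a set; groups, dyes and set numbers came from the labels. One group-means fit in limma 3.58.1 (R 4.3.3; lmFit, eBayes) covered all clones, named spots and 1 added row, ACT1 minus ACT2, with at least 2 complete sets, without controls. Benjamini-Hochberg adjustment ran over all rows of a contrast, and a row was called at adjusted p under 0.05. The fit was tested on simulated data. Set numbers were not taken to pair samples: same-numbered sets correlated at a median of -0.009 over 70 pairs. Named clones are the 3 most like each actin. Of the 11 names, 4 matched RefSeq's table. The actins, lists and tests were chosen with earlier results of these data known.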

Additional observations from a re-analysis of the deposited data

Results flagged for a closer look

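Among the 6 arrays of fl against wild type at +10, the dye swap of set 1 stood apart for ACT1, at -2.59 against -1.55 in the next array. ACT2 was also lowest on that array, at -0.88, and the median of its 11 named spots was -0.81. Centred on that median, ACT1 read -1.77 there, and ACT1 minus ACT2 read -1.71, beside -1.62 to -1.17 on the other 5 arrays. Chance alone flags about 1 in 20 groups, and 24 groups were examined.

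The difference of fl from wild type in ACT2 was not the same at +10 and +3 on the deposited scale: -0.09 at +10 and -0.67 at +3, a difference of 0.58 (limma adjusted p = 0.0189); the sets of the 2 ages overlap, with -0.42 to 0.19 at +10 and -0.91 to -0.29 at +3. On the centred scale it was -0.10 (adjusted p = 0.525).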

How the results depend on the processing

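Of 42 actin results, 24 passed the test, and 489 values under alternatives kept direction and side of the threshold in 445. Some of these had little room to change. The clone signs at +3 as deposited alter no named spot, and the clone median cancels in ACT1 minus ACT2. The cause of a change was not tested. ACT1 at -3, 0, +5, +10 and in fl at both ages, ACT2 at +10, +15 and +20, and ACT1 minus ACT2 at -3, 0, +15, +20 and in fl at both ages kept their calls under every alternative run. ACT1 at +15 missed the threshold on forward arrays alone (-0.29), on swaps alone (-0.46) and with controls Y1 to Y3 subtracted (-0.25). With the median of the 11 named spots, or of the other 9, subtracted, ACT2 in fl at +3 turned to 0.063 and 0.0015, ACT2 at -3 to 0.30 and 0.29, and ACT2 for 0 minus -3 to -0.27 and -0.30. The same subtractions turned the change of fl minus wild type between the ages, +10 minus +3, to -0.28 and -0.28 for ACT1 and -0.10 and -0.10 for ACT2, and ACT1 for +10 minus +5 to -0.049 and -0.13. With 11 spots ACT2 turned to 0.031 at 0 and to 0.094 for +15 minus +10, and with 9 spots to -0.077 for +10 minus +5. With Y1 to Y3 subtracted, ACT2 turned to 0.027 in fl at +10 and -0.26 for 0 minus -3, and with the clone median subtracted that step was -0.0092. Forward arrays alone gave the ACT1 change between ages in fl 0.96 (now called), ACT1 for +10 minus +5 -0.070, ACT2 in fl at +10 0.13, ACT2 for 0 minus -3 -0.12, and ACT1 minus ACT2 at +10 -0.10. Swaps alone gave the change between ages in fl -0.16 for ACT1 and 0.17 for ACT2 (no longer called), and ACT2 at 0 0.0069.

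Leaving out each set in turn gave ACT1 -0.52 to -0.23 at +15, -0.31 to -0.17 at +20, 0.20 to 0.77 for the change between ages in fl, -0.084 to 0.84 for +10 minus +5 and -0.079 to 0.33 for +20 minus +15. It gave ACT2 0.49 to 0.87 at +5, -0.23 to 0.074 in fl at +10, 0.49 to 0.64 for the change between ages in fl, -0.038 to 0.16 for 0 minus -3 and -0.40 to 0.038 for +15 minus +10. For ACT1 minus ACT2 it gave -0.42 to 0.47 at +10, -0.40 to 0.14 for the change between ages in fl, 0.46 to 0.73 for 0 minus -3 and -0.50 to 0.42 for +10 minus +5. Where 1 complete set is left at an age, that set is assumed to vary like the others. With the replicate number as a block, ACT1 at +15 was -0.38 (adjusted p = 0.0342) and no call changed. On average no pairing by number was seen, as correlations of same-numbered sets (median -0.009) and others (0.009) were alike. They ran from -0.22 to 0.31 and from -0.30 to 0.27, and sharing in single pairs was not tested. The subtraction of Y1 to Y3 and the clone signs at +3 as deposited were added after the data were seen.

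The count of all rows called, the background of the actin calls, moved most in small contrasts. For +10 minus +5 it was 576, against 963 with the clone median subtracted, 85 on forward arrays alone, 381 with the block and 66 to 383 with a set left out. For 0 minus +3 it was 3342, against 6446 when that comparison was fitted alone, 1518 on forward arrays and 1623 and 2148 without sets 1 and 2. For the change between ages in fl, 5780 rows were called with the clone signs at +3 as deposited, in place of 3975. Forward arrays alone gave 2251 in place of 3975 for the change between ages in fl, 1169 in place of 2051 for 0 minus -3, 1401 in place of 3121 for +15 minus +10 and 271 in place of 816 for +20 minus +15, where swaps gave 426. Without set 1 these 4 counts were 2220, 554, 1096 and 207, and +5 and +10 against +3 had 3228 and 3801 in place of 5394 and 6094. Without set 2, +5 against +3 had 3383 and +20 minus +15 had 293; without set 3, 0 minus -3 had 1291 and +20 minus +15 had 487.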
